A study of Mus musculus with 2 samples.

Results

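The replication-dependent histone genes are the 67 features whose symbols begin with Hist1h, Hist2h, Hist3h or Hist4h, of 32285 features in the count matrices. They were chosen by symbol alone, and all 67 were found in the GENCODE M21 annotation of the mouse genome build GRCm38. They code for the linker histone H1 (6 members) and for the core histones H2A (18), H2B (18), H3 (12) and H4 (13). The Hist1 cluster holds 54 members between positions 21715763 and 23934851 of chromosome 13. The Hist2 cluster holds 10 on chromosome 3 (96219865 to 96270132), Hist3 holds 2 on chromosome 11, and Hist4h4 lies alone on chromosome 6.

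The cells came from MB49 tumours, a mouse bladder tumour line transplanted into C57BL/6J mice, taken on day 14 from mice aged 12 to 14 weeks. The series holds 1 male and 1 female library, and nothing else distinguishes them in the labels, so sex and library cannot be told apart and no difference was tested. The labels describe viable CD4+ T cells gathered by flow sorting. Over the kept barcodes, 1856 female and 2155 male unique molecular identifiers (UMIs) were of Cd4, and 35891 and 29654 of Cd8a, so the label was not borne out and groups are called by the genes that define them. After filtering, 3468 female and 3519 male barcodes remained (median 9517 and 7880 UMIs), of which 12 barcode sequences occur in both libraries. Barcodes with at least 1 Cd3e UMI, a T cell receptor subunit, numbered 3260 and 3151. They were split by UMIs of Mki67, a gene of dividing cells: 0 UMIs (2463 female and 2442 male barcodes), 1 UMI (263 and 235), and 2 or more (534 and 474). Levels are UMIs per 1000000 UMIs (CPM) of summed barcodes, the female value given first, and ranges in parentheses are exact 95% intervals that cover counting error only. The kit reads the start of each molecule, so CPM is not divided by gene length, and each gene is compared between groups, not with other genes.

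A dividing cell makes a full new set of histones while it copies its DNA, to wrap the new strands. The messages of replication-dependent histone genes end in a short stem-loop in place of a poly(A) tail. The stem-loop is bound by SLBP, and the messages are made in S phase and broken down when it ends. Some of these genes also give longer, polyadenylated messages, which are known from cells that have stopped dividing. How well messages without a poly(A) tail were captured here, relative to those with one, was not measured. All levels, shares and classes below are therefore those of captured messages only. Histone variants such as H3.3 and H2A.Z come from separate genes that do not depend on replication.

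The stem-loop is the feature that defines the family, so it is shown for some of the members named below, from those closely tied to Mki67 to those with the lowest ratios. The pattern searched on the sense strand was a stem of 6 bases starting GG and ending T, a loop of 4 bases starting TT, and the stem's reverse complement. It was present in the annotated transcripts of 44 of 67 members (65.7%) and of 36 of 55383 other genes (0.0650%). Of the 23 members without it, 15 have no annotated transcript longer than 500 bases. The sequences are from GENCODE M21 transcripts, 5′ to 3′, with the 16 bases of stem and loop in capitals and up to 5 flanking bases in lower case.
Hist1h2ae: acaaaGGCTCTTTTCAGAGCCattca
Hist1h2ao: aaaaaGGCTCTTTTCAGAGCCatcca
Hist1h1e: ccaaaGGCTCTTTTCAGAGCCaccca
Hist1h2bk: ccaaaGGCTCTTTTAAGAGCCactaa
Hist1h4d: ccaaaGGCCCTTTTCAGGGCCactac
Hist1h4i: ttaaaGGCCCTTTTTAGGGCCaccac
Hist2h2aa1: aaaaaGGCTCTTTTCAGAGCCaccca
Hist3h2ba: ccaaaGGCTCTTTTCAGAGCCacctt
Hist4h4: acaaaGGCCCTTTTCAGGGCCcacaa
The form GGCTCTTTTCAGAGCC was the most frequent, in 26 members, followed by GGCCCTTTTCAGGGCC in 7 and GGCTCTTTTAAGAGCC in 6. Members that followed Mki67 closely (Hist1h2ae, Hist1h2ao) and members that did not (Hist2h2aa1, Hist3h2ba) carry the same 16 letters. What follows the stem-loop differed between classes defined below from the counts. In cycle-bound members a median of 44.0 annotated bases followed it and in members between a median of 377, and 3 of 20 and 8 of 14 had the poly(A) signal letters AATAAA or ATTAAA there. Members without the stem-loop, 13 of 33 cycle-bound and 4 of 18 between, are left out. Cycle-bound Hist1h1d has the longest such stretch, 4884 bases with 12 signals. Longer stretches have more room for these letters, and the counts were not set against length. Of the 5 persisting members, Hist4h4 has 2445 bases with 4 such signals and Hist3h2ba 169 bases with 1, while Hist2h2aa1 and Hist2h2aa2 have 35 bases and Hist1h4m 3, with none. These are letters of the annotation, and the libraries do not show where messages end.

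Histone UMIs were concentrated in barcodes with Mki67. The level of free RNA in the droplets was not measured, so low levels in barcodes without Mki67 are given as UMIs and not read as expression. At least 1 UMI in either library was found for 65 of 67 members. Hist1h2ba and Hist1h2aa, a neighbouring H2B and H2A pair, had none, which allows up to 0.0539 (female) and 0.0592 (male) CPM at a limit of 3 UMIs. Hist1h1t, a linker histone known from the testis, had 1 female UMI. All members together made up 0.132% and 0.118% of kept UMIs. The tenth of Cd3e barcodes with the most histone UMIs held 72.6% and 75.3% of the histone UMIs of Cd3e barcodes, whereas the tenth with the most UMIs of any kind held 36.7% and 38.6% of all UMIs.

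Summed over members, histone CPM was 384 (377 to 392) and 412 (404 to 421) in barcodes without Mki67, 661 and 507 with 1 Mki67 UMI, and 2623 (2602 to 2644) and 2279 (2258 to 2300) with 2 or more. The last was 6.83 times (6.68 to 6.97) the first in the female library and 5.53 times (5.41 to 5.65) in the male. Per barcode, the median in the same order was 304, 367 and 2288 CPM in the female library and 310, 384 and 1696 CPM in the male. No histone UMI was seen in 13.4% and 15.3% of barcodes without Mki67, and in 0.562% and 0.422% of those with 2 or more, which were also deeper (median 36338.5 and 36933 UMIs against 8031 and 7254.5). With every barcode thinned to the same depth and the Mki67 groups set again, the ratios were 7.26 and 8.20. Without possible doublets (barcodes above 30000 UMIs or with both Foxp3 and Cd8 UMIs) they were 11.7 and 9.37. The limit of 30000 UMIs lies below the median depth of barcodes with 2 or more Mki67 UMIs. It left only 186 and 152 of these, and 2262 and 2212 of those with 0, so it also removes most of the deeper group. Fibroblast genes (4 of 4 seen) were at 2.32 and 21.1 CPM without Mki67 and 34.8 and 36.6 with 2 or more UMIs, and Krt8 and Krt18 at 7.31 and 6.84 against 91.6 and 11. Their part in the result was not tested.

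Of the 56 members measured in both libraries (at least 20 UMIs over the 2 groups and at least 2 CPM in 1 of them), 33 were cycle-bound: at least 4 times higher with 2 or more Mki67 UMIs, with a lower bound of at least 2, in both libraries. That is 58.9% of members, where 2.14% of all 10663 measured features met the same rule. Persisting members, with a ratio under 2 and an upper bound under 4 in both libraries, numbered 5, or 8.93% of members against 93.7% of features. The remaining 18 lay between (32.1% of members and 4.13% of features), and 11 were not measured. The median ratio over measured members was 6.11 and 5.45, and over all features 0.979 and 0.997. The ratio exceeded 1 in all 57 members measured in the female and all 56 in the male library.

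**Figure D1:**
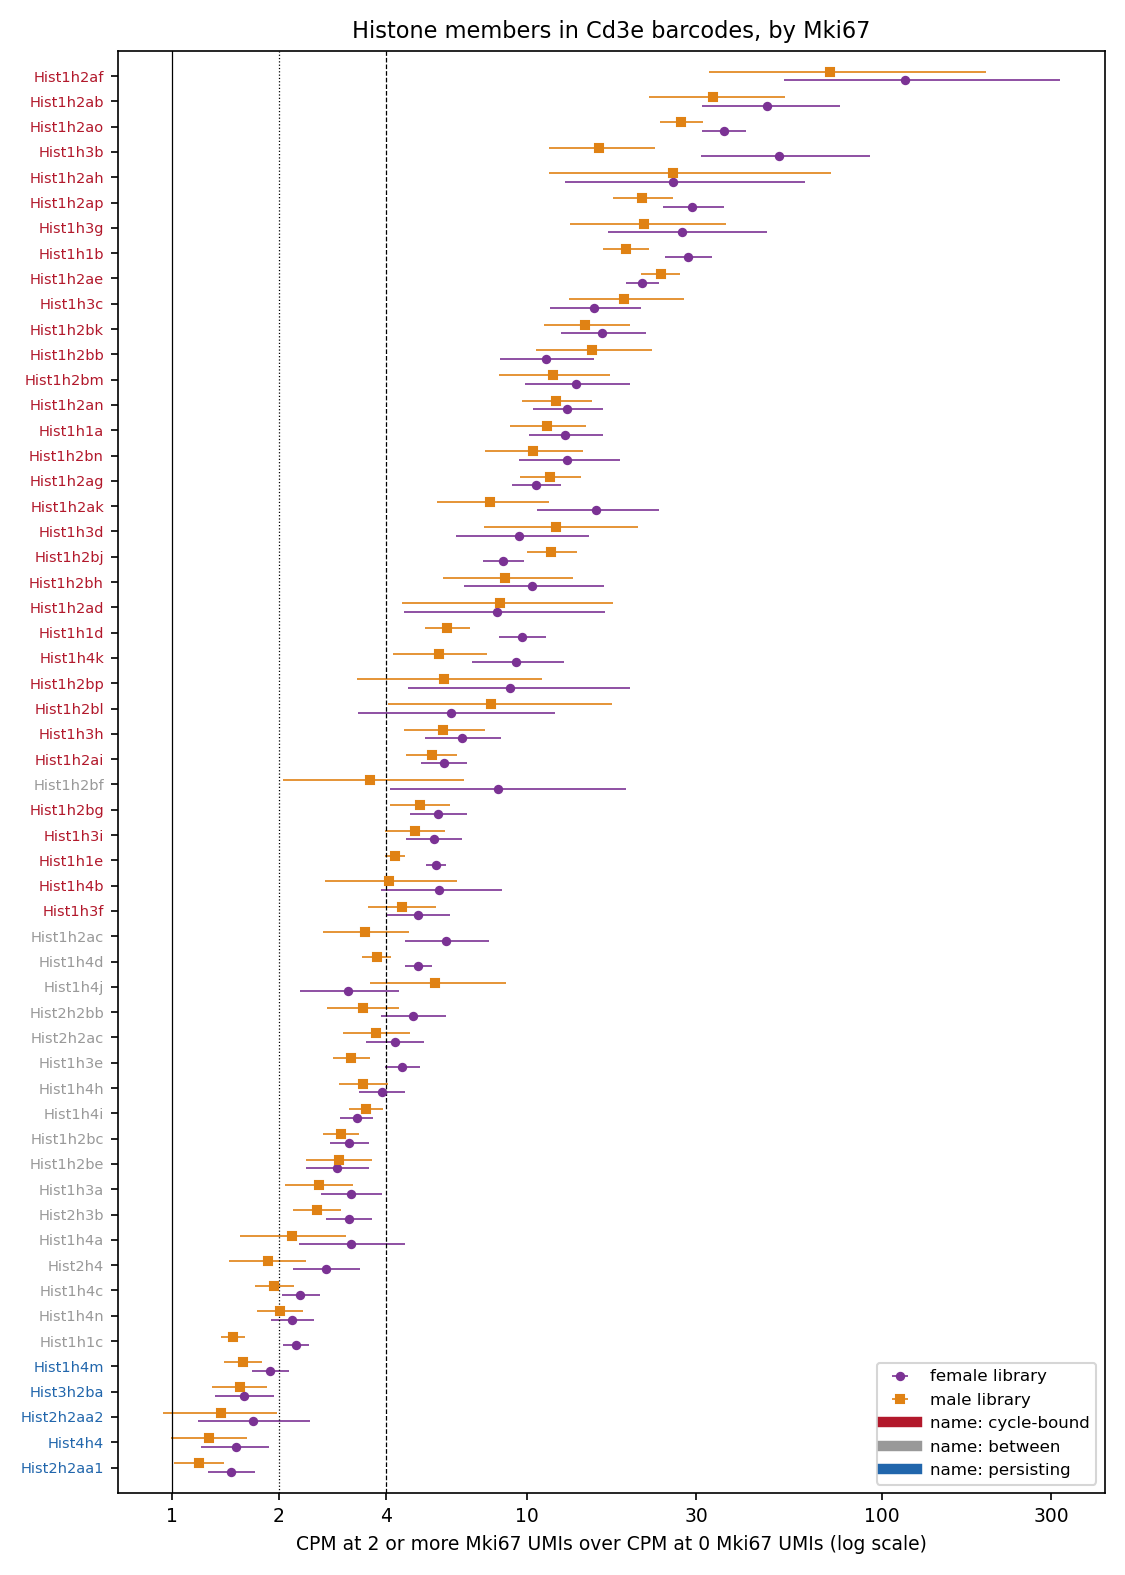
Ratio of CPM at 2 or more Mki67 UMIs to CPM at 0 Mki67 UMIs for the 56 measured histone members (log scale), with exact 95% counting intervals, in the female (circles) and male (squares) library; lines mark ratios of 1, 2 and 4, and names are coloured by class. Hist1h2af is at the top with 116 and 71.4, and Hist2h2aa1 at the bottom with 1.47 and 1.19.

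At the limits used, the classes followed the gene clusters. All 33 cycle-bound members are in Hist1, which also holds 14 members between and 1 persisting member, Hist1h4m. In Hist2, 0 members were cycle-bound, 4 lay between, 2 persisted and 4 were not measured, and the measured members of Hist3 and Hist4 (1 each) persisted. Hist2h2ac, at 4.24 and 3.76, missed the 4-fold limit in the male library. It was cycle-bound without possible doublets and with equal weight per barcode. Hist2h2bb was so without possible doublets and thinned, and Hist2h3b thinned. The absence of cycle-bound members from Hist2 thus depends on the limit and the processing. By family, cycle-bound members were 11 of 18 H2A, 9 of 18 H2B, 7 of 12 H3, 4 of 6 H1 and 2 of 13 H4. These totals include members that were not measured: 3 H2A, 4 H2B, 2 H3, 1 H1 and 1 H4. The members just inside the 4-fold limit were Hist1h4b (5.65 and 4.08) and Hist1h1e (5.54 and 4.25), and just outside it was Hist1h4d (4.93 and 3.77). Just inside the persisting limit was Hist1h4m (1.89 and 1.58), and just outside it were Hist1h4n (2.18 and 2.01), Hist1h1c (2.23 and 1.49) and Hist1h4c (2.30 and 1.94).

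H2A genes were the most strongly tied to Mki67. H2A CPM summed over members was 71.1 and 68.2 without Mki67 and 1023 and 865 with 2 or more UMIs, a ratio of 14.4 (13.7 to 15.1) and 12.7 (12.1 to 13.4). Hist1h2ae (chromosome 13, 23570517 to 23571220, minus strand) had the most UMIs of the H2A genes, at 14.2 and 11.1 CPM without Mki67, 54.0 and 24.5 with 1 UMI and 299 and 263 with 2 or more. Its ratio was 21.1 (19.0 to 23.5) and 23.8 (21 to 27). Hist1h2ao was at 7.93 and 8.93 CPM without Mki67 and at 284 and 242 with 2 or more, a ratio of 35.8 and 27.1. The nearly identical Hist1h2ap was at 4.10 and 4.71 against 120 and 99.7 CPM. Reads shared between these copies cannot be placed with certainty, since only 7.16% and 7.63% of the 90-base windows of Hist1h2ao and Hist1h2ap occur in no other annotated gene. Hist1h2ab (0.851 and 0.959 against 40.3 and 32.1 CPM) and Hist1h2af (0.232 and 0.250 against 26.9 and 17.9 CPM) were near 0 without Mki67. Hist1h2ag had ratios of 10.6 and 11.6, Hist1h2an 13.0 and 12.1, and Hist1h2ai 5.82 and 5.39, the lowest of the 12 cycle-bound members with the most UMIs apart from Hist1h1e. Their windows were also largely shared, with 23.2%, 16.1% and 11.2% found in no other annotated gene. Of the 33 cycle-bound members, 17 had under 50% of such windows, so the ratios of single genes are uncertain.

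Linker histones, which sit on the DNA between nucleosomes, were bound to the cycle in 4 of the 5 measured members. Hist1h1b, which codes for H1.5 and shares none of its windows with another gene, was at 6.66 and 8.17 CPM without Mki67 and 189 and 155 with 2 or more UMIs, a ratio of 28.4 (24.4 to 33.3) and 19.0 (16.4 to 22.1). Hist1h1a had ratios of 12.8 and 11.4, and Hist1h1d of 9.70 and 5.95. Hist1h1e, which codes for H1.4, started from a much higher level of 45.6 and 53.7 CPM and reached 253 and 228, a ratio of 5.54 and 4.25. It overlaps Hist1h2be on the same strand, so reads in the shared part cannot be assigned to 1 of them. Hist1h1c, which codes for H1.2, lay between: 32.6 and 44.6 CPM without Mki67 against 72.7 and 66.3, a ratio of 2.23 (2.05 to 2.43) and 1.49 (1.37 to 1.61). The H1 share of histone UMIs was 24.8% (23.9 to 25.6) and 28.9% (28.0 to 29.8) without Mki67 and 23.8% (23.4 to 24.1) and 23.7% (23.3 to 24.1) with 2 or more, lower with Mki67 in the male library.

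H2B and H3 had intermediate ratios, 5.82 and 5.37 for H2B and 5.81 and 4.69 for H3. Among H2B genes Hist1h2bj was at 10.1 and 7.17 CPM without Mki67 and 86.6 and 84.2 with 2 or more UMIs, a ratio of 8.58 (7.53 to 9.80) and 11.7 (10.0 to 13.8). Hist1h2bk had ratios of 16.3 and 14.6. Hist1h2bc, the H2B gene with the most UMIs among those between, was at 13.0 and 17.4 against 41.1 and 51.9 CPM. Among H3 genes Hist1h3b had the widest gap between libraries, with ratios of 51.3 (30.9 to 92.2) and 16 (11.5 to 23), from 0.580 and 1.54 CPM without Mki67. Hist1h3e was at 15.1 and 17.1 against 67.3 and 54.6 CPM, a ratio of 4.45 and 3.20.

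H4 genes were the least tied to Mki67. Summed H4 CPM was 114 and 115 without Mki67 and 373 and 316 with 2 or more UMIs, a ratio of 3.26 (3.13 to 3.40) and 2.74 (2.62 to 2.87), below the interval of every other family in both libraries. H4 made up 29.7% and 28.0% of histone UMIs without Mki67 and 14.2% and 13.9% with 2 or more, while H2A went from 18.5% and 16.5% to 39.0% and 38.0%. Hist1h4d, the H4 gene with the most UMIs, was at 24.4 and 24.0 against 120 and 90.5 CPM. Hist1h4i was at 18.5 and 18.6 against 61.1 and 65.5 CPM.

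**Figure D2:**
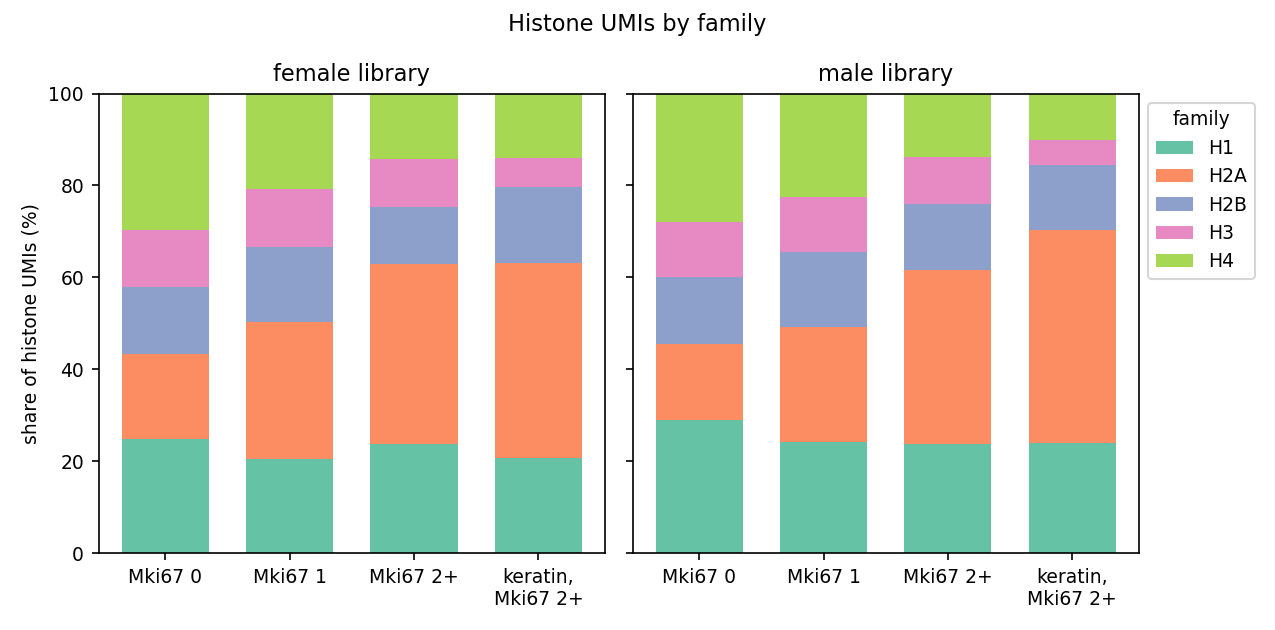
Share of histone UMIs (%) by family in Cd3e barcodes with 0, 1 and 2 or more Mki67 UMIs and in keratin barcodes with 2 or more, in each library. H4 narrows from 29.7% and 28.0% to 14.2% and 13.9% between 0 and 2 or more Mki67 UMIs, and H2A widens from 18.5% and 16.5% to 39.0% and 38.0%.

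The 5 persisting members code for H2A (Hist2h2aa1, Hist2h2aa2), H2B (Hist3h2ba) and H4 (Hist4h4, Hist1h4m). Hist2h2aa1 (chromosome 3, 96245497 to 96246082, plus strand) was at 12.0 and 12.5 CPM without Mki67, 9.06 and 12.0 with 1 UMI and 17.6 and 14.9 with 2 or more, a ratio of 1.47 (1.26 to 1.71) and 1.19 (1.01 to 1.40). Its near copy Hist2h2aa2, which has no window of its own, was at 2.05 and 2.42 against 3.47 and 3.30 CPM. Hist4h4 (chromosome 6, 136801553 to 136804415, minus strand) was at 5.61 and 5.42 against 8.46 and 6.91 CPM, a ratio of 1.51 (1.21 to 1.88) and 1.27 (0.995 to 1.63). Hist3h2ba (chromosome 11, 58948920 to 58949533, plus strand) was at 7.35 and 9.38 against 11.8 and 14.5 CPM, a ratio of 1.60 (1.32 to 1.94) and 1.55 (1.30 to 1.85). Hist1h4m was at 17.2 and 18.9 against 32.5 and 29.8 CPM. Hist4h4 and Hist3h2ba are the persisting members whose counts can be placed best, with 95.3% and 91.4% of windows of their own, against 11.5% for both Hist1h4m and Hist2h2aa1. The persisting members together made up 11.5% and 11.8% of histone UMIs without Mki67 and 2.82% and 3.05% with 2 or more. The class was set from the same 2 groups, so these shares only describe it. Without possible doublets, 0 members stayed under the limit in both libraries, and Hist2h2aa1 had ratios of 2.19 and 1.5.

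A stricter definition of barcodes outside the cycle gave lower levels of cycle-bound members and not of persisting ones. The classes were set with all barcodes at 0 Mki67 UMIs, and the stricter group is a part of these. The contrast between classes thus describes them and is no separate support. The stricter group was also less deep, with a median of 7070 and 6440 UMIs against 8031 and 7254.5. In the 1739 and 1817 barcodes with 0 UMIs of 7 cycle genes (Mki67, Top2a, Rrm2, Pclaf, Tk1, Ccna2 and Birc5), cycle-bound CPM was 117 and 138, against 156 and 161 at 0 Mki67 UMIs alone, and persisting CPM was 47.9 and 54.5, against 44.2 and 48.6. Hist1h2ae was at 7.67 and 8.01 CPM in these barcodes and Hist1h2ao at 5.77 and 5.69. Hist1h1e, at 40.7 and 53.2 CPM, Hist1h1c, at 35.4 and 46.0, and Hist1h4m, at 17.2 and 21, remained close to their levels at 0 Mki67 UMIs. Hist2h2aa1 was at 13.4 and 15 CPM, the male value being level with the 14.9 CPM at 2 or more Mki67 UMIs.

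Within Mki67 barcodes, histone levels were lowest where the share of S-phase gene UMIs was highest. Cd3e barcodes with at least 1 Mki67 UMI and at least 10 UMIs of the lists were ranked by the S share, the UMIs of 51 S-phase genes over those of 51 S-phase and 51 G2/M genes, neither list holding a histone member, and split into 3 groups of like size. In the S-rich group (248 and 212 barcodes) against the G2M-rich group (249 and 212), histone CPM was 1487 and 1153 against 2773 and 2808, a ratio of 0.536 (0.525 to 0.548) and 0.411 (0.400 to 0.421). It was 0.336 and 0.228 without possible doublets and 0.717 and 0.731 with barcodes thinned to equal depth. In the female library Krt8 and Krt18 were at 33.7 CPM in the S-rich and 197 in the G2M-rich group and the fibroblast list (4 of 4 seen) at 1.30 and 20.6, while in the male library they were at 2.51 and 1.60, and at 12.2 and 8.13. Their part in the result was not tested. The S-rich groups were at least 2 times higher for 0 of 56 members, against 0.228% of features. The G2M-rich groups were at least 2 times higher for 21 of 56 members, against 1.41% of features, 7 of them H2B, 5 H2A, 4 H4, 3 H3 and 2 H1. Hist1h2af was at 8.37 and 5.42 CPM in the S-rich and 30.1 and 22.8 in the G2M-rich group. Hist1h2bc was at 24.9 and 23.8 against 57.3 and 84.8 CPM. Hist1h3a (15.3 and 11.8 against 15.2 and 12.8 CPM) and Hist1h4b (ratios of 0.927 and 0.788) had intervals that included 1 in both libraries. Hist1h1a was highest in the middle group of the female library, at 45.1 CPM against 22.6 and 24.5, and in the male library was at 23.0, 30.3 and 34.0 CPM from S-rich to G2M-rich. The number of G2M-rich members was 0 with thinned barcodes, 7 with fixed limits of S share, 36 with equal weight per barcode and 38 without possible doublets.

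In 10 bins of S share the histone maximum lay inside the range and not at its S end. Histone CPM was 2218 and 2567 in the bin with the lowest S share, peaked at 3192 in the third bin of the female and 3086 in the second bin of the male library, and was 608 and 514 in the bin with the highest S share. Mki67, which is in neither list, was also lower there, at 64.9 and 71.8 CPM, against 270 and 351 in the first bin. Bins of high S share are thus also bins of low Mki67, and the part of this in the histone trend was not tested. The genes that follow belong to the lists that set the S share, so their trend along the bins is part of the sorting and only describes the bins. In the last bin Mcm2 to Mcm7, the helicase subunits loaded before replication starts, were at 1054 and 915 CPM, against 272 and 301 in the first. Rrm2, the ribonucleotide reductase subunit made in S phase, was at 54.9 and 77.6 CPM against up to 210 in the seventh female and 168 in the fourth male bin. Ccnb1, Cdc20 and Plk1, which act in mitosis, were at 363 and 388 CPM in the first bin and 10.6 and 11.6 in the last. Hist1h2ae followed the sum, from 377 CPM in the third female bin to 34.8 in the last. Persisting members lay between 34.3 and 92.7 CPM across female bins and between 35.9 and 89.6 CPM across male bins. Their S-rich over G2M-rich ratio, 0.574 and 0.509, was near that of cycle-bound members, 0.535 and 0.395, and persisting Hist3h2ba was among the 21 members higher in the G2M-rich groups.

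**Figure D3:**
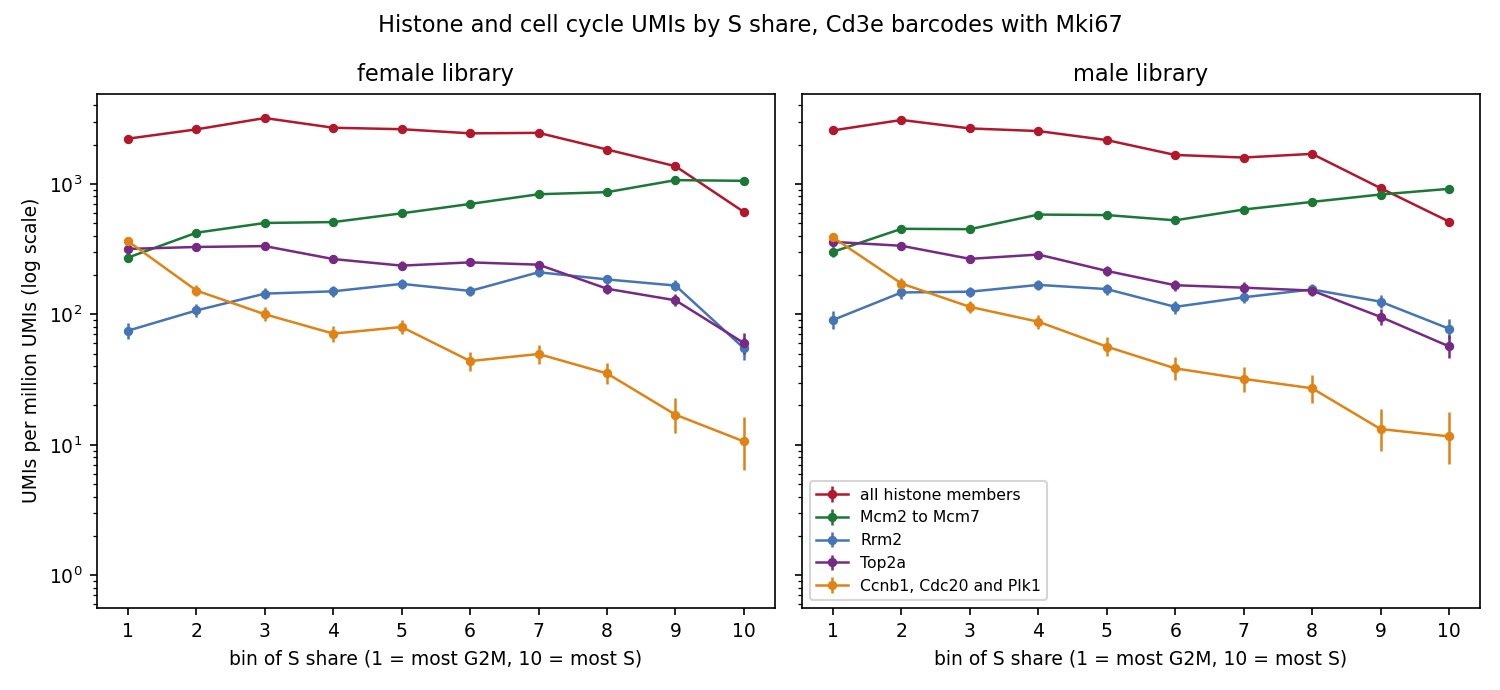
CPM (log scale) of all histone members, Mcm2 to Mcm7, Rrm2, Top2a, and Ccnb1, Cdc20 and Plk1 in 10 equal bins of S share, with exact 95% counting intervals, for Cd3e barcodes with Mki67. Histone CPM peaks at 3192 in the third female and 3086 in the second male bin and is lowest, at 608 and 514, in the bin with the highest S share; the other genes drawn are among those that set the S share.

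Of genes that process, carry or replace these histones, 16 of 17, 18 of 26 and 5 of 10 had ratios under 2 in both libraries, against 93.7% of all features. Of 17 measured processing genes, 0 were at least 4 times and 1 was at least 2 times higher in both libraries (Cdk2, 2.15 and 2.08). Slbp, the stem-loop binding protein, went from 127 to 191 CPM in the female library, with ratios of 1.51 and 1.29, and Casp8ap2, a component of histone locus bodies, had 1.51 and 1.52. Srrt and Cpsf2, which act in RNA 3′ end formation, had 1.40 and 1.42, and 1.42 and 1.52. Of 26 histone chaperones, 1 was at least 4 times higher: Asf1b, which hands H3 and H4 to the replication machinery, with 10.2 and 10.4. The most counted chaperones had ratios of 1.30 and 1.2 for Npm1, 1.24 and 1.32 for Ncl and 1.54 and 1.53 for Set, while Nap1l1 had 2.11 and 2.21. Of 10 measured replication-independent histone genes, 5 had ratios of at least 2 and 5 were under 2. H3f3a (1.02 and 0.970) and H3f3b (1.03 and 1.05), which code for H3.3, were level between groups, H2afz (H2A.Z) had 2.06 and 2.22, and Cenpa, the H3 variant of centromeres, had 2.50 and 2.86. For comparison, 24 of 51 S-phase and 45 of 51 G2/M genes were at least 4 times higher. Among the most counted of these were Rrm2 (18.4 and 20.4), Dut (3.32 and 3.44), Pcna (2.08 and 2.09) and Mcm6 (1.74 and 1.93), and Top2a (11.8 and 10.8), Ube2c (13.7 and 11.4), Birc5 (31.7 and 36.7) and Cenpa.

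Many H2A and H2B genes stand head to head and share the stretch between their starts, so their promoters are given for the members discussed. In the annotation 12 pairs of members start within 500 bases of each other on opposite strands, and all 12 are H2A with H2B. Hist1h2ae and Hist1h2bg start 176 bases apart, yet Hist1h2bg had ratios of 5.61 and 4.99, against 21.1 and 23.8. Hist1h2ag and Hist1h2bj, 270 bases apart, had 10.6 and 11.6 against 8.58 and 11.7. Hist1h2ac and Hist1h2bc, both between, had 5.91 and 3.5 against 3.16 and 2.99. Both genes were cycle-bound in 6 pairs and between in 1, the classes differed in 1 (Hist1h2bf and Hist1h2ad), and 4 pairs held a gene that was not measured. Hist1h2ao, with 6878 and 5261 UMIs, starts 268 bases from Hist1h2bq, which had 20 and 21 UMIs. In the annotated transcripts of Hist1h2bq, at most 4.88% of the windows occur in no other annotated gene, against 7.16% for Hist1h2ao. Counts of both genes thus cannot be placed with certainty, and the few UMIs of Hist1h2bq do not show that its level is low.
RefSeq promoter windows (GRCm38.p6, 250 bases before to 50 after the start, 300 in all) were found for 62 members. They are shown 5′ to 3′ on the gene's strand, with 3 searched motifs in capitals, on either strand: the TATA box (TATAAA), the CCAAT box, and the octamer (ATTTGCAT). Hist1h2ae is shown as the H2A gene with the most UMIs, and Hist2h2aa1 and Hist4h4 as the members with the lowest ratios.
Hist1h2ae (chr13:23571171-23571470, minus strand): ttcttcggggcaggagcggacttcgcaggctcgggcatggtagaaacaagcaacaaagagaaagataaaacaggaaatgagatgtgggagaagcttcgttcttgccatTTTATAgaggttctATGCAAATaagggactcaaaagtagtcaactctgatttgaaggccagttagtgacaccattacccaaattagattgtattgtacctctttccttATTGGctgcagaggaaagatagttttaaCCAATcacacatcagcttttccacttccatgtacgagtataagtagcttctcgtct
Hist2h2aa1 (chr3:96245247-96245546, plus strand): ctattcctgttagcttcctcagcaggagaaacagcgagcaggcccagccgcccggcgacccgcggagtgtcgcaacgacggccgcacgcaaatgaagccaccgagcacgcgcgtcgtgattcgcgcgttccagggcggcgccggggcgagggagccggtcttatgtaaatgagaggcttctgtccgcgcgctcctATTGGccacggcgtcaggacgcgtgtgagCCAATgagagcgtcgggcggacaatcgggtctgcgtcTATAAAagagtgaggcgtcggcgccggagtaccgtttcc
Hist4h4 (chr6:136804382-136804681, minus strand): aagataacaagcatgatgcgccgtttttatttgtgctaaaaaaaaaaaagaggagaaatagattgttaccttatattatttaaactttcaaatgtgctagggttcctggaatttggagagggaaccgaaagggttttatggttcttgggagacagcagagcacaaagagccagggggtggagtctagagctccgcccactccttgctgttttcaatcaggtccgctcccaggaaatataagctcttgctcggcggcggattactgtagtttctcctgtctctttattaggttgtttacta
The window of Hist1h2ae holds all 3 sets of letters, but those of the TATA box and the octamer only on the opposite strand. That is the strand of its head-to-head partner Hist1h2bg. The window of Hist2h2aa1 holds the TATA and CCAAT boxes, and that of Hist4h4 holds none of the 3. In head-to-head pairs the search on either strand can also count letters that stand before the partner gene. The CCAAT box was in 85.5% of member windows and 37.4% of all 32851 RefSeq windows, the TATA box in 56.5% and 13.6%, and the octamer in 22.6% and 1.74%. The octamer was in 38.9% of H2A and 43.8% of H2B windows and in none of the windows of H1, H3 or H4. CCAAT was in all windows of H1, H2A, H2B and H3 and in 25.0% of H4 windows, the family least tied to Mki67. By class, CCAAT was in 93.8% of cycle-bound, 73.3% of in-between and 3 of 5 persisting windows, and these classes differ in their share of H4 genes. A match is a description of letters and not of a bound site.

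Histone levels were somewhat lower in Foxp3 than in Cd8 barcodes without Mki67, with no member past a 2-fold limit in both libraries. Foxp3 marks regulatory T cells, and here the Foxp3 group had at least 1 Foxp3 UMI and under 2 Cd8a and Cd8b1 UMIs, and the Cd8 group the reverse with 0 Foxp3 UMIs. Without Mki67, the 206 and 306 Foxp3 barcodes had 315 and 336 histone CPM and the 1681 and 1469 Cd8 barcodes 381 and 410, a ratio of 0.827 (0.751 to 0.907) and 0.819 (0.757 to 0.885). Against the median feature, at 1.08 and 1.12, the members' median was 0.744 and 0.785. Of 37 measured members, 0 were at least 2 times higher (6.76% of features) and 0 at least 2 times lower (2.74%). H3 was lower in Foxp3 barcodes (0.638, 0.462 to 0.861, and 0.689, 0.536 to 0.875), as was H2A (0.680 and 0.749), whereas H1 had ratios of 1.08 (0.907 to 1.27) and 1.01 (0.883 to 1.16). Hist1h1e was at 55.3 and 63.2 CPM in Foxp3 and 44.9 and 51.9 in Cd8 barcodes, and Hist1h4m at 15.3 and 20.3 against 17.3 and 18. Hist1h2ae was lower in Foxp3 barcodes in both libraries, at 5.33 and 6.60 against 14.5 and 11.9 CPM. Genes of other cell types also differed between these groups. The dendritic cell list (6 and 5 of 7 genes seen in Foxp3 barcodes) was at 1798 and 1994 CPM in Foxp3 and 488 and 671 in Cd8 barcodes, the endothelial list (1 of 3 seen) at 71.3 and 60.8 against 16.1 and 18.7, and the macrophage list (7 and 5 of 8 seen) at 247 and 45.2 against 26.0 and 48.3. Their part in the histone levels was not tested.

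With 2 or more Mki67 UMIs the Foxp3 groups were small, 16 and 18 barcodes against 336 and 242 Cd8 barcodes. Histone CPM was 2105 and 2575 against 2980 and 3101, a ratio of 0.707 (0.657 to 0.759) and 0.830 (0.774 to 0.890). Without barcodes that held at least 10 keratin UMIs (1 of the 16 female Foxp3 barcodes and 3 of the 336 Cd8 barcodes), the female levels were 3253 and 3032 CPM and the ratio was 1.07 (0.995 to 1.16). Without possible doublets the ratios were 0.739 and 0.502. The male Foxp3 group had 3440 CPM of dendritic cell genes (6 of 7 seen) against 510 in the Cd8 group, and the part of these in the result was not tested. Of 56 members 0 were at least 2 times higher (2.56% of features) and 1 at least 2 times lower (1.28%). It was Hist1h2an, an H2A gene, at 19.5 and 21.6 against 50.8 and 57.0 CPM. In the Foxp3 groups 3 UMIs amount to 8.34 and 9.26 CPM, so its levels there rest on few UMIs. Only 16.1% of the windows of Hist1h2an occur in no other annotated gene, so its counts cannot be placed with certainty. Hist1h1b was at 120 and 120 against 215 and 214 CPM, and Hist1h1c at 86.2 and 127 against 80.7 and 81.6. These levels of single members include the female keratin barcode, without which the Foxp3 group falls from 359538 to 219807 UMIs. They are not given without it. Barcodes with both Foxp3 and Cd8 UMIs (177 and 208) had 2128 and 1751 histone CPM at a median depth of 54679 and 55981 UMIs, the highest of the Cd3e groups split by Foxp3 and Cd8, and were kept apart. Whether they hold more than 1 cell was not tested.

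Keratin barcodes, with at least 10 Krt8 and Krt18 UMIs, were 38 and 27, of which 9 and 3 also held Cd3e. Krt8 and Krt18 are keratins of simple epithelia. Among 9 further epithelial genes these barcodes had 64.9 and 62.9 CPM (5 of 9 seen), against 45.5 and 39.5 in Cd3e barcodes without Mki67, so they are not named as a cell type. They had 623 and 781 histone CPM, 131 and 156 in the 18 and 14 without Mki67. Of those with 2 or more Mki67 UMIs, 17 and 7 barcodes with median depths of 71972 and 73162 UMIs, histone CPM was 916 and 1722, against 2670 and 2280 in Cd3e barcodes with fewer than 10 keratin UMIs, a ratio of 0.343 (0.324 to 0.363) and 0.755 (0.704 to 0.809). The median member was at 0.254 and 0.607 and the median feature at 0.852 and 0.932.

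When both libraries had to pass, member differences past 2-fold between keratin and Cd3e barcodes were no more frequent than among all features. Most members were still lower in keratin barcodes with 2 or more Mki67 UMIs. The female median member ratio was 0.254 (features 0.852), and 1 of 57 members exceeded 1. The male median was 0.607 (features 0.932) on 7 keratin barcodes, and 12 of 57 members exceeded 1. Members past 2-fold in a single library are thus not counted below. T cell genes were low in keratin barcodes (354 and 139 CPM over 10 genes, against 5128 and 5099 in Cd3e barcodes without Mki67). Of 56 members 0 were at least 2 times higher (10.3% of features) and 5 at least 2 times lower in both libraries (12.3% of features): Hist1h1a, Hist1h3a, Hist1h3h, Hist1h4m and Hist3h2ba. Hist3h2ba and Hist1h3a had 0 UMIs in all keratin barcodes, which allows up to 1.43 and 2.36 CPM at 3 UMIs. At 2 or more Mki67 UMIs, where 3 UMIs amount to 2.32 and 6.22 CPM, their levels in keratin barcodes were at most 0.193 and 0.130 of those in Cd3e barcodes in the female library and 0.427 and 0.468 in the male. Hist1h1a was at 0.773 and 12.4 CPM, against 37.1 and 34.7 in all Cd3e barcodes with 2 or more Mki67 UMIs. Persisting members summed to 7.73 and 6.22 CPM (10 and 3 UMIs) against 75.2 and 69.6, a ratio of 0.103 (0.0492 to 0.190) and 0.0894 (0.0184 to 0.262), below that of cycle-bound members (0.333 and 0.782). Hist1h2bc stood out in the other direction, at 69.6 and 83 CPM, with ratios of 1.71 (1.36 to 2.13) and 1.60 (1.13 to 2.19). Over all keratin barcodes the members with the highest CPM were Hist1h2ae (108 and 162), Hist1h2ao (59.1 and 70.0) and Hist1h2bc (53.4 and 52.7) in the female library, and Hist1h1e (47.2 and 73.9) stood among the first 3 in the male. Hist1h2ae differed between libraries: with 2 or more Mki67 UMIs it was at 169 CPM in female and 400 in male keratin barcodes.

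**Figure D4:**
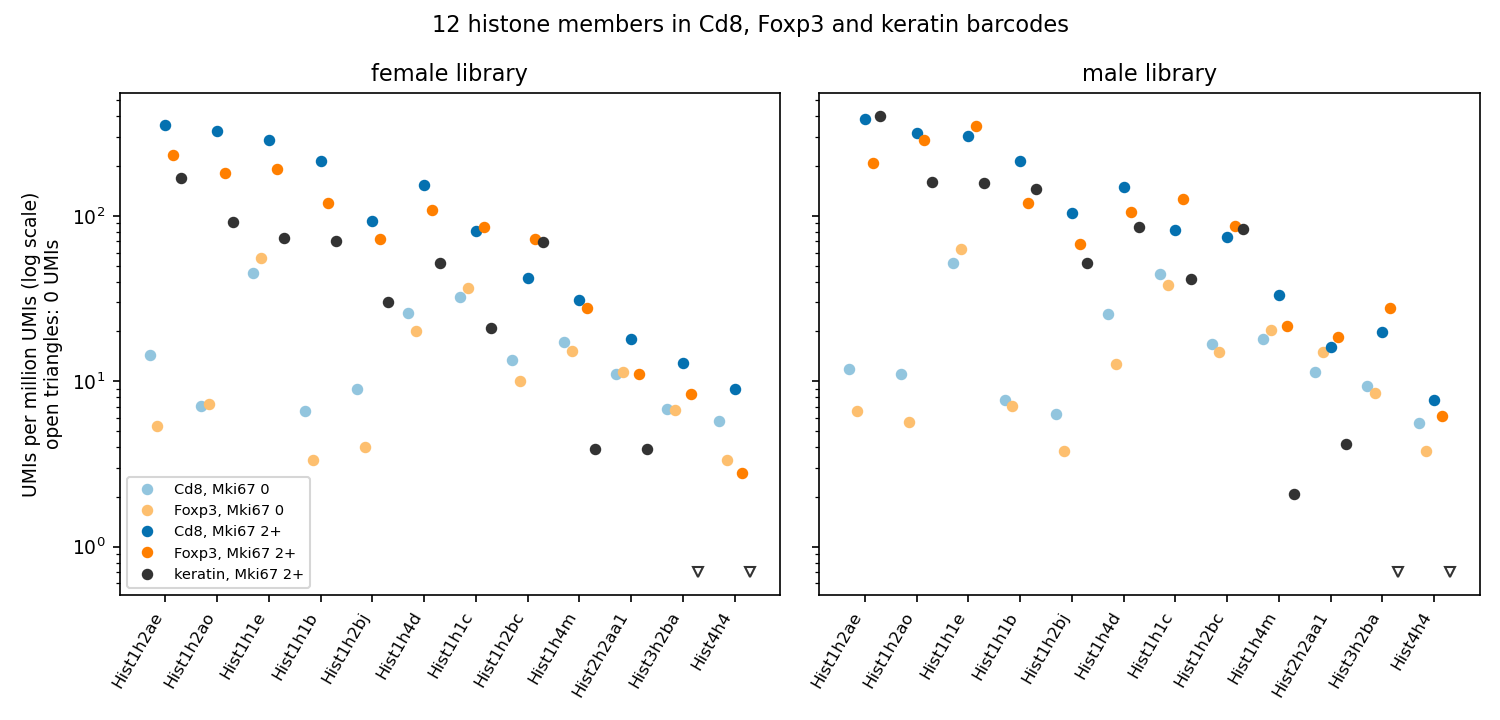
CPM (log scale) of 12 histone members in Cd8 and Foxp3 barcodes with 0 and with 2 or more Mki67 UMIs and in keratin barcodes with 2 or more, in each library; open triangles mark 0 UMIs. Hist3h2ba and Hist4h4 have 0 UMIs in these keratin barcodes, while Hist1h2bc is at 69.6 and 83 CPM, above its Cd8 levels with Mki67 of 42.1 and 74.0 CPM.

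Between the female and the male library the members differed less than between Mki67 groups. With 2 or more Mki67 UMIs the female level was 1.15 times the male (1.14 to 1.17), with 1 UMI 1.30 times (1.24 to 1.37), and with 0 UMIs 0.932 times (0.906 to 0.958). At 2 or more UMIs 2 of 57 members were at least 1.5 times higher in the female (1.30% of features) and 0 at least 1.5 times lower (2.15%). At 0 UMIs both counts were 0 of 39 (0.736% and 2.02%). The 2 were Hist2h4, at 12.9 against 8.21 CPM (1.57, 1.29 to 1.92), and Hist1h2af, at 26.9 against 17.9 CPM (1.51, 1.32 to 1.72). Hist1h4f had a higher ratio on fewer UMIs (59 and 32), 1.64 (1.05 to 2.61). The lowest ratios were those of Hist2h2be (0.662, 0.395 to 1.10), Hist1h2bc (0.791, 0.723 to 0.865) and Hist3h2ba (0.810, 0.683 to 0.960). Thinned to equal depth, the summed ratios were 0.997 with 2 or more and 1.12 with 0 Mki67 UMIs. Thinning set the Mki67 groups again and left 101 and 77 barcodes with 2 or more UMIs. The groups compared were then other sets of barcodes, so these values cannot show whether either direction holds at equal depth.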

How the data were processed

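Droplet single-cell RNA counts were analysed for 1 male and 1 female library. Per the file headers, each deposited matrix is a table of raw UMI counts from Cell Ranger 7.0.1. The submitters' processing notes name the build GRCm38, and Seurat 5. Whether introns were counted is not given in the sources used here, nor is the number of mice.

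A barcode was kept if it had 500 or more genes and no more than 10% of its UMIs from mitochondrial genes (55647457 female and 50716597 male UMIs). UMIs were summed per group and divided by the group's total. Intervals of levels are exact Poisson, and those of ratios Clopper-Pearson. A count of 0 was set to 3 UMIs in a ratio. With 1 library per sex no test was made. No doublet caller was run. Barcodes above 30000 UMIs, and Cd3e barcodes with Foxp3 and Cd8, were left out in an alternative. No cluster was built or named. The members and gene lists were chosen with earlier results of these data known. Members named with values were all persisting members, the 12 cycle-bound and 5 in-between members with the most UMIs, the 3 highest in keratin barcodes, the 3 highest and 3 lowest female over male ratios, and of other lists up to 4 genes with the most UMIs. Other members were named after their values were seen. Alternatives were a stricter and no cell filter, other minimum counts and fold limits, equal weight per barcode, thinning to 2977 UMIs with groups set again, and scaling with edgeR 4.0.16 (TMM) and DESeq2 1.42.0. Python 3.11.15, numpy 2.4.6, scipy 1.17.1 and pandas 2.3.3 were used. The ratio intervals and the cycle-bound and persisting rules were tested on simulated Poisson counts, which have no further spread between barcodes. The other steps were not tested in this way.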

Additional observations from a re-analysis of the deposited data

Results flagged for a closer look

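Hist1h2ae in keratin barcodes with 2 or more Mki67 UMIs went opposite ways in the libraries relative to Cd3e barcodes with 2 or more. The ratio was 0.557 (0.485 to 0.637) in the female library, on 219 UMIs in 17 keratin barcodes, and 1.52 (1.31 to 1.76) in the male, on 193 UMIs in 7. The intervals cover counting error only, and the difference between the libraries was not tested.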

How the results depend on the processing

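The summed ratio of 2 or more to 0 Mki67 UMIs stayed above 1 in every alternative run: it was 11.7 and 9.37 without possible doublets (barcodes above 30000 UMIs or with Foxp3 and Cd8), 7.74 and 5.82 with equal weight per barcode, 7.26 and 8.20 thinned, and 7.53 and 5.83 against barcodes without UMIs of the 7 cycle genes. The S-rich over G2M-rich ratio was 0.336 and 0.228 without possible doublets, 0.430 and 0.343 with equal weight, 0.717 and 0.731 thinned, and 0.636 and 0.453 with fixed S share limits. The count of G2M-rich members, 21 as reported, was 38 without possible doublets, 36 with equal weight, 0 thinned, 7 with fixed limits and 44 at a 1.5-fold limit, in alternatives added after seeing the data. Foxp3 over Cd8 at 0 Mki67 UMIs was 0.696 and 0.674 thinned, 0.714 and 0.692 with TMM, and 0.720 and 0.701 with DESeq2 size factors. At 2 or more it was 0.907 and 0.639 thinned, 0.610 and 0.744 with TMM, 0.618 and 0.753 with DESeq2 size factors, 0.739 and 0.502 without possible doublets, and 0.661 and 0.611 with equal weight. Without keratin barcodes in either group (1 Foxp3 and 3 Cd8 barcodes of the female, 0 and 1 of the male library) it was 1.07 and 0.827, an alternative added after seeing the data. Keratin over Cd3e was 0.295 and 0.682 with equal weight, and 0.417 in the female library without keratin barcodes that held Cd3e, also added. No value could be had for it thinned or without possible doublets, since no keratin barcode was left. Female over male at 2 or more Mki67 UMIs was 1.19 with equal weight, 1.17 with TMM, 1.18 with DESeq2 size factors and 0.997 thinned. At 0 it was 0.891 with equal weight and 1.12 thinned. Persisting members numbered 0 without possible doublets, 1 thinned, 8 with no minimum of UMIs and 1 at a 1.5-fold limit. Cycle-bound members numbered 28 to 48, and 22 of the 33 were in the class in all 10 alternatives. Hist2h2aa1 in the male library had a ratio of 0.932 thinned and 0.988 against barcodes without UMIs of the 7 cycle genes, the only 2 of 904 recomputed member values that reversed. The causes of these shifts were not tested. Thinning left 101 and 77 barcodes with 2 or more Mki67 UMIs, so it rests on few. Leaving out possible doublets left 186 and 152 of the 534 and 474 such barcodes. No paired analysis was possible because each sex has 1 library.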
